A study of Mus musculus with 111 samples.

Results

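Brain histamine is made, packed, broken down and sensed through a small set of genes, and 7 of them were followed here through the day in the tuberomammillary nucleus (TMN) of the mouse: Hdc, Slc18a2, Hnmt, Maob, Hrh1, Hrh2 and Hrh3. They were chosen by name for their roles, from the 54087 gene names of the count tables, with earlier results of these data known. Of the 7, 5 passed the filter on low counts that left 13891 genes for testing. Hnmt and Hrh2 did not pass it, so counts of members that passed a test are over 5 genes and not over all 7. The files were RNA-seq count tables of TMN tissue from adult C57BL/6 mice of both sexes, each mouse infused into the TMN on both sides with 1 of 3 adeno-associated viruses (AAVs).

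The GFP virus expressed the fluorescent protein alone. The H3.3 virus carried wild-type histone H3.3, and the Q5A virus carried H3.3 in which glutamine 5 was replaced by alanine, a residue that cannot take up a monoamine; both histones were tagged, and all 3 vectors held a GFP marker that guided the dissection. Every animal kept its own H3.3 genes, and the tissue held transduced and untransduced cells of all types. Tissue was taken at zeitgeber time (ZT) 0, 4, 8, 12, 16 and 20, where ZT0 is lights on. There were 4, 5, 6, 6, 6 and 5 GFP libraries at these times, 5, 6, 7, 7, 8 and 6 H3.3 libraries, and 6, 7, 6, 7, 7 and 6 Q5A libraries, 110 in all. GFP and H3.3 were pooled as controls, which gave 71 libraries beside 39 of Q5A.

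The histaminergic neurons of the TMN are the only neurons of the brain that make histamine, and they are most active during wakefulness. Histidine decarboxylase, the product of Hdc, turns histidine into histamine, the vesicular monoamine transporter VMAT2, the product of Slc18a2, loads it into vesicles, and methylation by histamine N-methyltransferase followed by oxidation by monoamine oxidase B removes it. Released histamine acts on H1 and H2 receptors, which are excitatory, and on the H3 receptor, an inhibitory receptor that also sits on the histamine neurons themselves.

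A library held between 673306 and 3375352 reads in its gene rows (median 1474422), which were only 3.49% to 5.63% of the uniquely placed reads. The reads had been counted with the strand option "yes" of htseq-count, whereas the first read of this stranded kit runs against the transcript. Each value is therefore the count of a row as deposited, and how much of it came from the member's own transcripts could not be told apart in these files. Replicates 2 and 3 of cohort 2 in Q5A at ZT4 differed in 3 rows by 6 reads and were counted as 1 library. In tissue of mixed cells, fewer cells of a type and less RNA per cell cannot be told apart.

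The promoters of the genes whose rows were called rhythmic in controls are shown first, because the E-box and related elements of the molecular clock are read there. Each is the run of 250 bases before the RefSeq start on GRCm38.p6, in the direction of the gene; Hdc is chr2:126618679-126618928 on the minus strand and Slc18a2 is chr19:59260628-59260877 on the plus strand.
Hdc: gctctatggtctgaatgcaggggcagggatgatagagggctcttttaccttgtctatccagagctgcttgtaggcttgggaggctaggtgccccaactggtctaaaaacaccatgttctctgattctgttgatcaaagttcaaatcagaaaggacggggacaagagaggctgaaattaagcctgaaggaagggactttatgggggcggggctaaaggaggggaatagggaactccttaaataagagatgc
Slc18a2: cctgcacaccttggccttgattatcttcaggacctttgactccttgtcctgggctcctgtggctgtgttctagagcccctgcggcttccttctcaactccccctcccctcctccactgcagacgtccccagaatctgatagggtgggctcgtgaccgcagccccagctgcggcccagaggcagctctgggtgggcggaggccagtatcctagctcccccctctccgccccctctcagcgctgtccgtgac
Both windows were searched on both strands for the letters CACGTG (the E-box, in 6.02% of 32851 RefSeq promoter windows of this length), CACGTT (the E'-box, 3.85%), AGGTCA (the core of the RORE, 14.02%), TTACGTAA (0.113%) and TTATGTAA (0.819%), the last pair being D-boxes. None of these letters was found in either window, so no base is in capitals. The GC content was 48.8% for Hdc and 64% for Slc18a2. The Hdc window lies inside the gene as annotated by GENCODE (chr2, 126593667 to 126619299), within an intron of a longer transcript. Of the members with a window in the table, a match was found in 1 of the 4 windows of Hrh1, an AGGTCA.

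Measured per length of exon, Slc18a2 stood highest of the 7 members and Hrh2 lowest. The mean was 17.7 ± 8.22 normalised counts per kb of exon for Slc18a2 (SD, n = 110 libraries, as for all levels in this paragraph), where a normalised count is a count divided by the size factor of its library. Hrh3 followed with 5.33 ± 2.44 and Maob with 2.28 ± 1.60. Hrh1 (1.05 ± 0.66), Hnmt (1.05 ± 1.04) and Hdc (1.01 ± 1.14) formed a group of close levels, and Hrh2 was at 0.47 ± 0.32. Between neighbours in this order, Slc18a2 was above Hrh3 in 109 of 110 libraries, Hrh3 above Maob in 103, Maob above Hrh1 in 93 and Hdc above Hrh2 in 66 (sign-flip permutation test over libraries, 2-sided, p = 1e-05 for each, the smallest it can give, adjusted over 6 pairs 1.5e-05). Hrh1 and Hnmt, and Hnmt and Hdc, did not differ beyond their spread (adjusted p = 0.999 and 0.868, same permutation test).

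**Figure D1:**
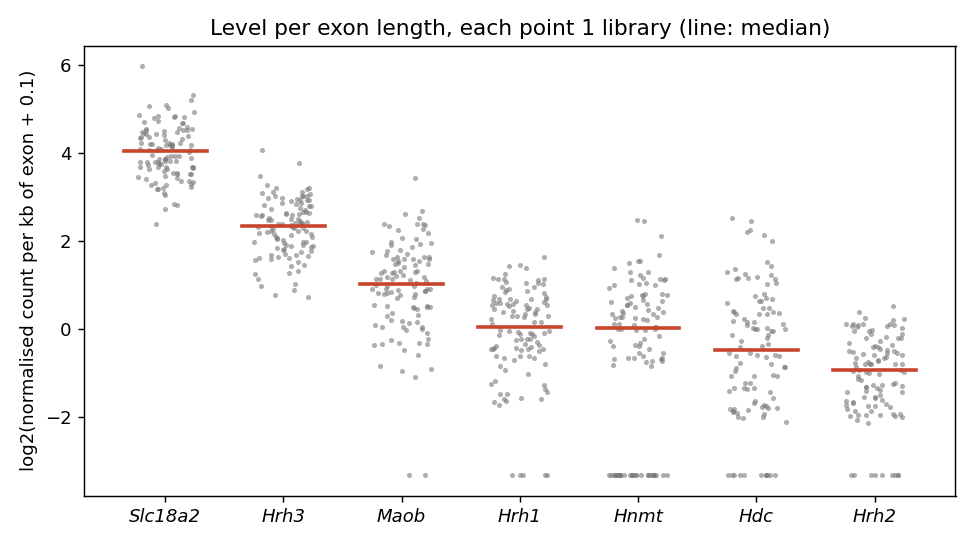
Each grey point is 1 of the 110 libraries and each red line the median; the vertical axis is log2 of the normalised count per kb of exon plus 0.1, and the points at the bottom are libraries with no read. Slc18a2 lay above Hrh3, the next gene, in 109 of 110 libraries, while the points of Hrh1, Hnmt and Hdc covered each other.

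The depth behind these levels was small. The median count per library was 90 for Slc18a2 (30 to 216) and 16 for Hrh3 (3 to 68). It was 6 for Maob, 4 for Hdc (0 to 53), 4 for Hrh1, 3 for Hrh2 and 2 for Hnmt. Reads were present in all 110 libraries for Slc18a2 and Hrh3, in 108 for Maob, 105 for Hrh1, 101 for Hrh2, 99 for Hdc and 81 for Hnmt. Values of a member in a single library thus carried a large counting error for every gene but Slc18a2.

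In controls, the row of Hdc, the gene of histamine synthesis, was low around lights on and higher from ZT8 to ZT16. The lowest, median and highest normalised counts in controls were 0, 1.9 and 9.8 at ZT0 (n = 9), 0, 1.3 and 7.8 at ZT4 (n = 11), and 0, 7.5 and 16.5 at ZT8 (n = 13). They were 1.2, 5.2 and 34.5 at ZT12 (n = 13), 0, 6.6 and 36.3 at ZT16 (n = 14), and 0, 3.0 and 9.6 at ZT20 (n = 11). Every control library at ZT0, ZT4 and ZT20 was thus under 10, while 3 groups in between reached higher in some libraries and still held others near 0. The mean was 2.45 at ZT4 and 9.87 at ZT16. The cohorts were not spread evenly over the times. Cohorts 2 and 3 together gave 1, 2, 4, 4, 6 and 2 control libraries from ZT0 to ZT20. At ZT16 the mean was 5.81 in cohort 1 (n = 8) and 15.3 in cohorts 2 and 3 (n = 6). At ZT4 it was 2.13 (n = 9) and 3.89 (n = 2). Time and cohort can thus not be fully told apart in the pooled controls.

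In Q5A the order of the times was another one. The lowest, median and highest normalised counts of Hdc were 1.5, 6.1 and 29.7 at ZT0 (n = 6), 1.9, 7.7 and 28.6 at ZT4 (n = 7), and 1.0, 6.1 and 12.5 at ZT8 (n = 6). They were 0, 1.2 and 14.4 at ZT12 (n = 7), 0, 5.6 and 13.5 at ZT16 (n = 7), and 0, 1.7 and 12.3 at ZT20 (n = 6). The highest Q5A libraries were those of ZT0 and ZT4, the times at which controls were low, but the ranges of Q5A and controls overlapped at all 6 times. At ZT4 the 5 GFP libraries held 0.84, 0.94, 1.1, 3.6 and 3.8 normalised counts, which were 1 to 5 reads each.

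**Figure D2:**
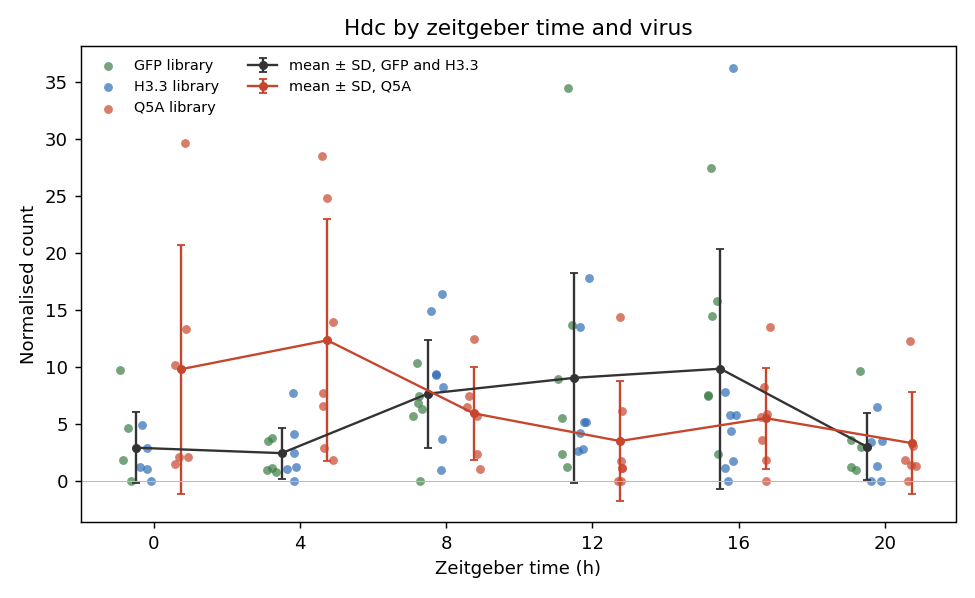
Normalised count of Hdc (vertical axis) in each library against zeitgeber time in hours (horizontal axis), with the mean ± SD of the GFP and H3.3 libraries in black and of the Q5A libraries in red, set slightly apart at each time. The black means are lowest at ZT4 and highest at ZT16, the red means are highest at ZT4, and a few libraries between 24.9 and 36.3 stand far above the rest.

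A rhythm was tested with JTK_CYCLE, which ranks the libraries against templates of periods from 8 to 24 h and gives a p adjusted over the templates of each gene. In controls, 2 of the 5 tested members were called at an adjusted p under 0.05, Hdc and Slc18a2, beside 16.8% of all genes tested. For Hdc the adjusted p was 0.00292 with a best period of 20 h and a peak at ZT12, and its Benjamini-Hochberg q over all genes was 0.067. No member had a q under 0.05, which 2.95% of all genes had. A 24 h cosine fitted to log2(normalised count + 1) of Hdc gave an amplitude of 0.86 ± 0.20 (SE, n = 71) and a peak at ZT12.2 in controls, with 0.93 ± 0.29 and ZT13.8 in GFP alone and 0.93 ± 0.27 and ZT10.9 in H3.3 alone. Called separately, Hdc had a JTK_CYCLE adjusted p of 0.0495 in GFP and 0.0433 in H3.3, where 13.5% and 7.62% of all genes were called.

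In Q5A, 0 of the 5 tested members were called by JTK_CYCLE beside 4.54% of all genes, and the adjusted p of Hdc was 0.80. In edgeR's fit of a 24 h cosine 0 members were called in Q5A beside 0.239% of 11706 genes, and 2 in controls beside 11% of 13264 genes. The adjusted p of Hdc in that fit was 0.349 in Q5A and 0.0036 in controls. The fitted amplitude in Q5A was 0.70 ± 0.29 (SE, n = 39) on the log2 scale, with a peak at ZT3.27. Within cohort 1, which held 78 of the 110 libraries, the calls by JTK_CYCLE changed places. The JTK_CYCLE adjusted p of Hdc was 0.106 in controls and 0.0264 in Q5A, with a q of 0.503 and 0.414. Of all 13891 genes, 2050 were called in cohort 1 controls and 1234 in cohort 1 Q5A, beside 2340 and 631 over all cohorts. In cohort 1 the fitted amplitudes of Hdc were 0.68 ± 0.22 and 1.3 ± 0.31, with peaks at ZT11.9 and ZT3.18.

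Whether the rhythm of Hdc differed between Q5A and controls was tested by itself, as the interaction of the arm with a 24 h cosine and sine in edgeR's quasi-likelihood test. Hdc was called with a Benjamini-Hochberg adjusted p of 0.0266 and the other tested members were not. Of all 13891 genes, 17 or 0.122% were called at an adjusted p under 0.05. At an unadjusted p under 0.05 the share of all genes was 14.4%, and Hdc was again the only member. The other adjusted p-values in edgeR were 0.413 for Hrh3, 0.523 for Maob, 0.609 for Hrh1 and 0.936 for Slc18a2. DESeq2 called Hdc too (adjusted p = 0.0452), as did edgeR with the cohort as a covariate (0.0176) and within cohort 1 alone (0.000209). Cohort 1 is a part of the same libraries. Many more genes were called in its fit than the 17 over all cohorts, and the number is given in the closing section.

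The call rested on few libraries. Of the 10 libraries with the most Hdc reads, left out 1 at a time, 5 ended it: the edgeR adjusted p was 0.0530 without replicate 2 of cohort 2 in H3.3 at ZT16, 0.0547 without replicate 4 of cohort 1 in GFP at ZT12, 0.0854 without replicate 4 of cohort 1 in Q5A at ZT4, 0.110 without replicate 2 of cohort 1 in Q5A at ZT0 and 0.0595 without replicate 2 of cohort 2 in Q5A at ZT4. It was also 0.174 with ZT as a factor in place of the cosine and 0.122 with the replicate number as a block. It was 0.0910 with H3.3 alone as the control and 0.216 with GFP alone. With the mean log2 level of the markers of histaminergic neurons as a covariate it was 0.467. Without the cohort 1 libraries of replicate number 2, 3, 4 or 5 it was 0.240, 0.394, 0.251 and 0.0807 (edgeR in each case). Without those of number 1 it was 0.0489. These adjusted p-values also depend on the other genes of each fit. The unadjusted edgeR p of Hdc was 2.49e-05 with all libraries. It ran from 6.65e-06 to 0.000174 without 1 of the 10 libraries, and from 2.42e-05 to 0.000997 without a replicate number.

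At single times, Hdc was higher in Q5A by 1.65 ± 0.72 (log2 difference ± SE) at ZT0 and by 2.31 ± 0.64 at ZT4, with unadjusted edgeR p-values of 0.0228 and 0.000443, where 3.34% and 9.35% of all genes had one under 0.05. Neither passed over all genes (adjusted p = 0.9995 and 0.513 in edgeR). The markers of histaminergic neurons past the filter, treated below, had these log2 differences at ZT0 and ZT4. Bsx had 2.02 ± 0.99 and 2.02 ± 0.89, Prph 1.31 ± 0.95 and 2.06 ± 0.83, and Gal 1.46 ± 0.83 and 0.57 ± 0.61. Msrb2 had 0.31 ± 0.55 and 0.60 ± 0.45, and Gad1 -0.44 ± 0.31 and 0.20 ± 0.28. None passed over all genes, and whether Hdc differed apart from them at these times was not tested. From ZT8 on, in order of time, the log2 differences of Hdc were -0.37 ± 0.62, -1.12 ± 0.62, -0.81 ± 0.58 and 0.21 ± 0.80. No member was called at any time at an adjusted p under 0.01 in edgeR or in DESeq2 (which gave an adjusted p to only 2 of the 5 at ZT20), beside 0.0132% of all genes over the 6 times together, with 0.0144% and 0.0576% at ZT16 and ZT20, 0.0072% at ZT8 and 0.0% at the rest.

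Over all times together the level of Hdc did not pass a test between viruses. The mean normalised count was 6.97 ± 7.66 in GFP (SD, n = 32), and the log2 difference of Q5A from the mean of GFP and H3.3 was 0.22 ± 0.29 (SE, edgeR adjusted p = 0.897). H3.3 minus GFP was -0.26 ± 0.34 (adjusted p = 0.9999 in edgeR). Levels of Hdc differed between cohorts as well: in controls the mean was 4.57 ± 5.56 in cohort 1 (n = 52), 12.8 ± 9.81 in cohort 2 (n = 14) and 5.22 ± 3.36 in cohort 3 (n = 5), and in Q5A it was 6.49 ± 7.86 (n = 26), 8.54 ± 7.63 (n = 10) and 3.38 ± 4.33 (n = 3).

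The row of Slc18a2, the gene of vesicular transport, followed another course. In controls the Slc18a2 row was lowest at ZT8 and highest at ZT20. Its lowest, median and highest normalised counts were 49.9, 105 and 138 at ZT0, 34.3, 79.2 and 115 at ZT4, and 44.3, 57.5 and 119 at ZT8. They were 26.9, 72.7 and 208 at ZT12, 36.3, 88.5 and 148 at ZT16, and 51.3, 107 and 326 at ZT20. The groups overlapped widely, and the single value of 326 at ZT20, replicate 1 of cohort 1 in GFP, stood well above the other libraries.

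In Q5A the medians of Slc18a2, in order of time from ZT0 to ZT20, were 110, 66.3, 75.5, 87.1, 92.3 and 110, within a range from 36.9 to 176. The lowest median was thus at ZT4 in Q5A and at ZT8 in controls, and the ranges overlapped at all 6 times. By JTK_CYCLE the controls had an adjusted p of 0.00237 with a period of 24 h and a peak at ZT20 (q = 0.0618), and Q5A one of 0.537. The cosine fits of the arms lay close to each other, with an amplitude of 0.36 ± 0.10 and a peak at ZT19.9 in controls and 0.30 ± 0.12 and ZT19.1 in Q5A (log2 scale, ± SE). The call in controls and not in Q5A does not by itself show a difference between them. The interaction test did not pass (adjusted p = 0.936 in edgeR). Called separately, Slc18a2 had an adjusted p of 0.0397 in GFP and 0.277 in H3.3 by JTK_CYCLE, and within cohort 1 one of 7.8e-05 in controls and 0.0617 in Q5A. Its level over all times differed by 0.08 ± 0.11 between Q5A and controls and by 0.07 ± 0.13 between H3.3 and GFP (log2 ± SE, edgeR adjusted p = 0.907 and 0.9999).

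The exons of Slc18a2 lie on chr19 from 59260896 to 59296012 on the plus strand, and the annotated gene Pdzd8 ends 1165 bases beyond them on the minus strand (59297178 to 59345780). Across the 110 libraries Slc18a2 and Pdzd8 had a Pearson r of 0.32 and a Spearman rho of 0.32 on the log2 scale. For Hdc, the nearest coding gene that runs towards its end, Slc27a2, ends 5423 bases away, and no annotated exon overlaps its exons. A total of 111 bases of Slc18a2 exon face the antisense gene Gm29261. Whether reads of these neighbours entered the Slc18a2 row was not tested.

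**Figure D3:**
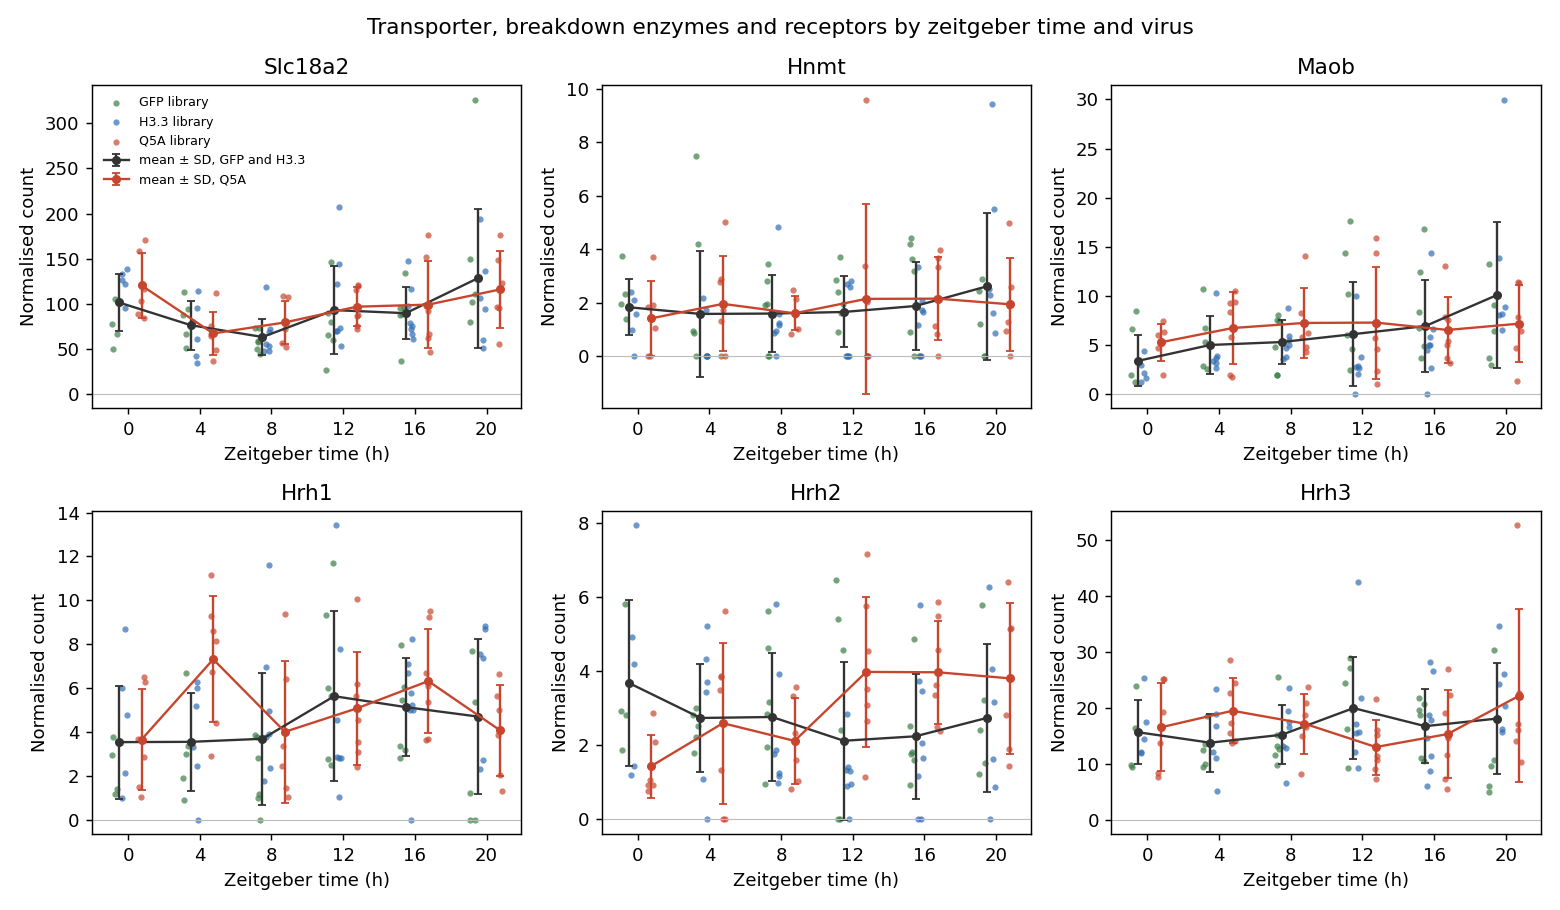
Normalised counts of the transporter, the breakdown enzymes and the receptors (vertical axes, each with its own range) against zeitgeber time in hours; points are libraries and lines join the mean ± SD of the GFP and H3.3 libraries (black) and of the Q5A libraries (red). The red and black ranges overlap at every time in all 6 panels, and the means of Slc18a2 are lowest at ZT8 in black and at ZT4 in red.

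Breakdown was represented by an enzyme of the cytosol and one of the mitochondrial membrane. Hnmt, the first, was at the limit of detection. Its lowest, median and highest normalised counts were 0, 1.64 and 9.45 over the 71 controls and 0, 1.60 and 9.59 over the 39 Q5A libraries, with reads in 52 and 29 of them. The arms covered the same range. In an edgeR fit without the filter on low counts, its log2 difference was 0.08 ± 0.29 for Q5A minus controls and -0.53 ± 0.35 for H3.3 minus GFP (± SE), and its JTK_CYCLE adjusted p was 1 in both arms.

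Maob had 0, 4.95 and 30.0 normalised counts as lowest, median and highest over controls and 1.02, 6.03 and 15.8 over Q5A. The control medians moved from 2.1 at ZT0 to 8.10 at ZT20, while those of Q5A stayed between 5.34 and 8.36. The highest control, at 29.98, was 1 library of H3.3 at ZT20 whose group otherwise reached 13.8. JTK_CYCLE gave an adjusted p of 0.513 in controls and 1 in Q5A. In H3.3 alone it gave 0.0162 with a period of 12 h, and in GFP alone 1, and the difference between these viruses was not tested. The log2 difference in level was 0.14 ± 0.18 for Q5A minus controls (edgeR adjusted p = 0.890) and -0.34 ± 0.22 for H3.3 minus GFP (0.9999). Maob lies on chrX from 16709282 to 16817366 on the minus strand.

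Among the receptors, Hrh1 (chr6, 114397936 to 114483296, plus strand) ran from 0 to 13.4 normalised counts in controls with a median of 3.78, and from 1.03 to 11.2 in Q5A with a median of 4.99. At ZT4 its lowest, median and highest values were 0, 3.3 and 6.66 in controls and 2.90, 8.13 and 11.2 in Q5A. Most Q5A libraries of that time lay above the control range, and the rest lay inside it. The log2 difference at ZT4 was 1.02 ± 0.44 with an unadjusted edgeR p of 0.021, and it did not pass over all genes (adjusted p = 0.524), where 9.35% of genes had an unadjusted p under 0.05 at ZT4. Over all times the log2 differences of Hrh1 were 0.25 ± 0.18 for Q5A minus controls (adjusted p = 0.843 in edgeR) and 0.44 ± 0.23 for H3.3 minus GFP (unadjusted p = 0.0545, adjusted 0.9999). JTK_CYCLE gave 0.784 in controls and 0.113 in Q5A.

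Hrh2 (chr13, 54192129 to 54236180, plus strand) did not pass the filter. It ran from 0 to 7.93 normalised counts in controls, with a median of 2.22, and from 0 to 7.15 in Q5A, with a median of 2.87. In Q5A at ZT0 it lay between 0.75 and 2.87 and in controls between 1.2 and 7.93. The unfiltered edgeR fit gave a log2 difference of -1.35 ± 0.65 at that time (unadjusted p = 0.041, adjusted 0.959), where 3.85% of the 36018 genes of that fit had an unadjusted p under 0.05. Over all times it was 0.13 ± 0.22 for Q5A minus controls and -0.25 ± 0.27 for H3.3 minus GFP, and the JTK_CYCLE adjusted p was 0.892 in controls and 0.214 in Q5A. Its exons face 145 bases of the antisense gene Gm16578.

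Hrh3 (chr2, 180099465 to 180104488, minus strand), the receptor found on the histamine neurons, ran from 4.86 to 42.4 normalised counts in controls, with a median of 15.6, and from 5.49 to 52.5 in Q5A, with a median of 15.9. Its coefficient of variation over the 110 libraries was 45.8%, beside 46.5% for Slc18a2, which includes the library at 326, and 114% for Hdc. JTK_CYCLE gave an adjusted p of 1 in both arms, and the log2 differences in level were 0.06 ± 0.12 for Q5A minus controls (edgeR adjusted p = 0.936) and 0.16 ± 0.15 for H3.3 minus GFP (0.9999). Of its exons, 349 bases face the antisense gene Gm17180.

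**Figure D4:**
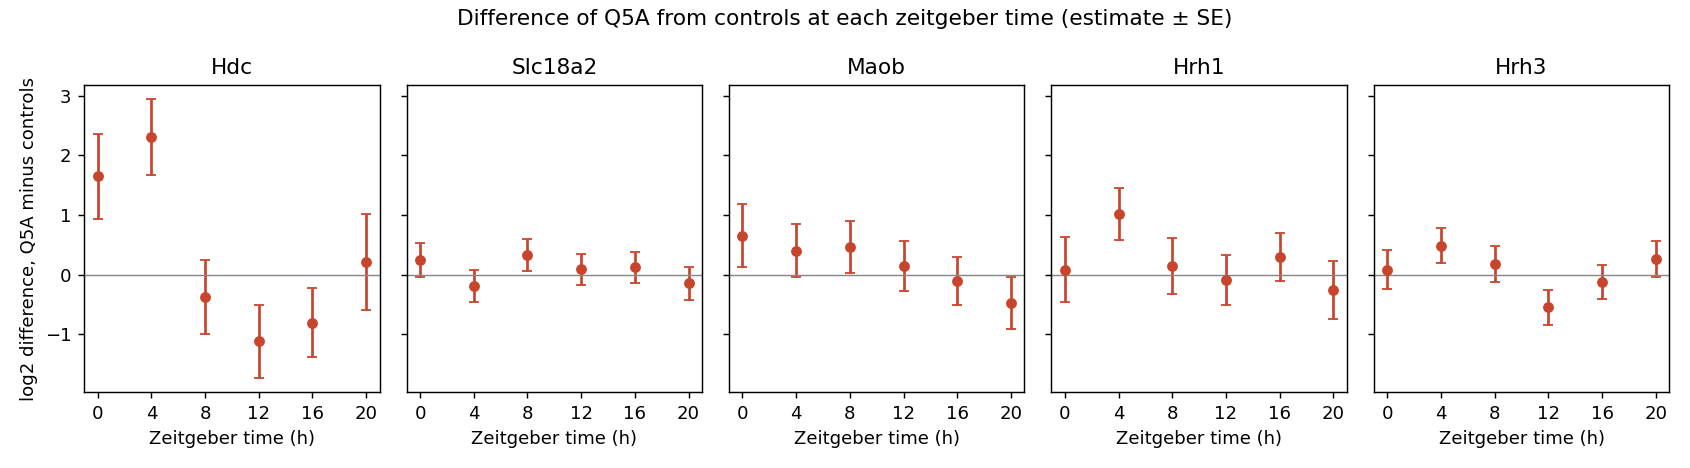
Log2 difference of Q5A from controls with its SE (vertical axis, shared by the panels) at each zeitgeber time in hours, for the 5 members that passed the filter on low counts. The differences of Hdc run from 2.31 at ZT4 to -1.12 at ZT12, those of the other 4 genes lie between -0.55 and 1.02, and no single time passed the test over all genes.

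Counted together, 0 of the 5 tested members differed in level between Q5A and controls at an adjusted p under 0.01 in edgeR, beside 0.036% of all genes, and DESeq2 called 0 as well. At an unadjusted p under 0.05 it was 0 members beside 5.45% of all genes. Between H3.3 and GFP it was 0 of 5 beside 0.0% at the adjusted threshold in edgeR, 0 in DESeq2, and 0 beside 3.79% at the unadjusted one. The median log2 difference of the 5 members, Q5A minus controls, was 0.14, beside 0.0039 over all genes tested.

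Of 21 further genes of histamine and histidine handling, which include the transporters, the aldehyde dehydrogenases that finish the breakdown and the carnosine enzymes, 13 passed the filter. The deepest were Pdxk, the kinase that makes the pyridoxal phosphate cofactor of histidine decarboxylase, with a median of 59 reads, Aldh2 with 33 and Aldh7a1 with 32. No gene of the 13 was called for a difference in rhythm or level in edgeR. Aldh9a1 had an unadjusted p of 0.0243 for rhythm and Slc7a5 unadjusted p-values of 0.0209 and 0.0240 for level in Q5A and H3.3, and no other of these genes was under 0.05. DESeq2 called 0 of the 13 in each of these tests. By JTK_CYCLE 0 were called in controls, 1 in Q5A (Tgm2, transglutaminase 2, adjusted p = 0.00458), 2 in GFP alone (Maoa, 0.00651, and Pdxk, 0.0251) and 0 in H3.3 alone. These shares lie beside the 16.8%, 4.54%, 13.5% and 7.62% of all genes given for the same samples. Exons of Pdxk, Aldh2, Aldh7a1 and Tgm2 face annotated genes of the other strand. Hrh4, the receptor of immune cells, was at 0 in all 110 libraries, which allows a level of up to 0.0189 CPM over the gene reads of all libraries (3 counts, for counting error only).

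How much of the histaminergic neurons a library held was gauged by the correlation of each listed gene with Hdc over the 110 libraries, on log2(normalised count + 1), with a 2-sided permutation test and adjustment over 65 genes. Prph, which encodes the neuronal filament peripherin, had a Pearson r of 0.64 and a Spearman rho of 0.60. Wif1, which encodes a secreted Wnt inhibitor, had 0.54 and 0.52, and Bsx, a homeobox gene of the hypothalamus, 0.49 and 0.48 (permutation test, adjusted p = 0.000217 for each r). All 3 come from a list of 8 markers of histaminergic neurons other than the members.

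The other markers of that list gave a mixed picture. Gal and Hcrtr2 each had an r of 0.27 (permutation test, adjusted p = 0.0252), Msrb2 one of 0.22 (0.0748) and Ada one of -0.11. Gad1, the enzyme of GABA synthesis, which most inhibitory neurons of the region also express, had an r of -0.35 (permutation test, adjusted p = 0.0029). Of the 8 markers 5 passed the filter, Wif1 had a median count of 0, and their summed normalised count ran from 32.7 to 204 in controls (median 78.8) and from 32.4 to 176 in Q5A (median 84.0). Most of this sum was Gad1, with a mean of 68.8 normalised counts over all libraries. The next were Gal with 6.30 and Msrb2 with 5.11, so the sum says little about the other markers. Prph itself was called in controls by JTK_CYCLE (adjusted p = 0.0208, peak at ZT14), with means from 0.72 at ZT4 to 3.58 at ZT16, and it was not called for a difference in rhythm between Q5A and controls (adjusted p = 0.279 in edgeR, unadjusted 0.010, beside the 14.4% of all genes under 0.05). Bsx was not called for that difference either (edgeR adjusted p = 0.294, unadjusted 0.0176). Gal, Msrb2 and Gad1 had unadjusted edgeR p-values of 0.139, 0.259 and 0.765. A covariate was made from the mean log2(normalised count + 1) of the 8 markers, and not from their sum. With it, the adjusted p of the difference in rhythm of Hdc was 0.467 in edgeR. The part of these markers in the result was not tested beyond this.

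Mast cells also make histamine. Of 7 mast cell markers 4 had any read and 1 passed the filter, Kit, which some neurons express; Cma1, Ms4a2 and Fcer1a were at 0 in all 110 libraries. Their summed normalised count ran from 0 to 15.7 in controls and from 0 to 26.4 in Q5A. Nearly all of it was Kit, with a mean of 4.83 over all libraries. The means of Cpa3, Tpsb2 and Mcpt4 were 0.11, 0.0096 and 0.0055.

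**Figure D5:**
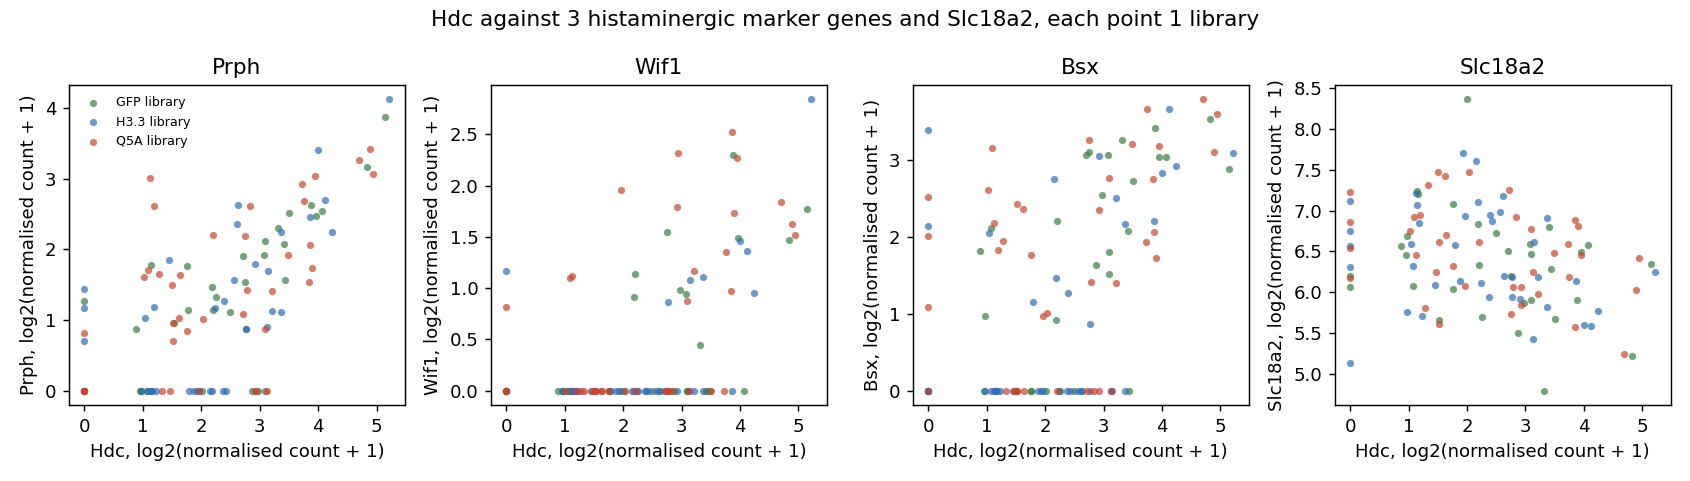
Each point is 1 library, with log2(normalised count + 1) of Hdc on the horizontal axis and of Prph, Wif1, Bsx or Slc18a2 on the vertical axes, coloured by virus. The marker genes rise with Hdc (r = 0.64, 0.54 and 0.49), with many libraries at 0, and Slc18a2 has an r of -0.29.

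Of the 6 other members, 1 was correlated with Hdc at an adjusted p under 0.05, and its sign was negative. The permutation test was run on the 65 listed genes only, so no share of all genes stands beside this count. Over the 13890 other genes past the filter, the 5th percentile of r with Hdc was -0.23. The neuronal genes Snap25, Syt1 and Rbfox3 had an r of -0.31, -0.30 and -0.10. Slc18a2 had a Pearson r of -0.29 and a Spearman rho of -0.31 (permutation test, adjusted p = 0.0182 and 0.00877). In cohort 1 alone it did not pass, with an r of -0.23 (permutation test, adjusted p = 0.162), nor with the mean of each group of virus and ZT removed (-0.24, 0.0604) or with both (-0.10, 0.645). Pearson r and Spearman rho were -0.33 and -0.31 over the 24 libraries of cohort 2, and 0.57 and 0.41 over the 8 of cohort 3, and these were not tested. Mean Slc18a2 was 99.4 ± 47.4 normalised counts in cohort 1, 59.7 ± 25.1 in cohort 2 and 86.0 ± 44.7 in cohort 3 among controls (SD, n = 52, 14 and 5), and 107 ± 34.8, 77.1 ± 35.5 and 60.7 ± 11.8 in Q5A (n = 26, 10 and 3). Without the 2 libraries farthest from the median of Hdc, r was -0.29. Prph kept an r of 0.56 in cohort 1, of 0.53 there with group means removed and of 0.60 without those 2 libraries.

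The remaining members had an r with Hdc of 0.20 (Hrh1, permutation test, adjusted p = 0.113), 0.12 (Hnmt), 0.08 (Hrh3), 0.07 (Maob) and -0.18 (Hrh2). Cartpt, a peptide gene of neighbouring hypothalamic neurons, had 0.34, the glutamine and histidine transporter gene Slc38a3 0.28, Ddc, which encodes aromatic amino acid decarboxylase, 0.27 and Slc29a4, which encodes a monoamine transporter of the plasma membrane, 0.27.

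Among the 13890 other genes tested, the rows most like Hdc by Pearson r over the 110 libraries were Prph (0.64), RP23-136M3.5 (0.58), Gm26776 (0.57), RP24-396L14.1 (0.57) and Tapbp (0.56). In all, 25 genes were above 0.5, and the 5th and 95th percentiles of all genes were -0.23 and 0.25. Slc18a2 ranked 13578 in that order. With the marker genes of dopaminergic neurons, Slc18a2 had an r of 0.03 (Th), 0.04 (Ddc), 0.06 (Nr4a2) and 0.24 (Slc6a3). The median counts of these markers were 7, 7.5, 2 and 1, beside 90 for Slc18a2. The rows most like Slc18a2 were RP24-285L8.3 (0.73), Trappc13 (0.72) and RP23-12I4.2 (0.70), those most like Maob were Sorcs2 (0.53), Slc6a11 (0.53) and Ahcyl2 (0.50), those most like Hrh1 were Ehmt2 (0.64), RP23-158M23.2 (0.63) and Slc1a3 (0.61), and those most like Hrh3 were Camk2a (0.63), Camkv (0.58) and Calb1 (0.58). All these values share library depth and dissection, and they are given as a description.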

How the data were processed

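RNA was polyadenylated RNA from TMN tissue, sequenced with a stranded Illumina ligation kit. Per the labels and the study's methods, the authors aligned reads to GRCm38 with STAR 2.7.11b and deposited raw counts per gene name from HTSeq 2.0.5 (exonic reads, strand option "yes"). They used DESeq2 1.44.0 to normalise counts and to compare the H3.3 and GFP viruses, and JTK_CYCLE to test for rhythms. Of 111 libraries read, 110 were used in 18 groups of virus and ZT, and 18 files tied to no sample were not used here. The 5 entries of unassigned reads stayed out of library sizes and tests.

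Counts were tested with edgeR 4.0.16 in R 4.3.3 (TMM, filterByExpr with a minimum count of 10 and a minimum total of 15, quasi-likelihood F test, Benjamini-Hochberg adjustment over all genes). Levels were called at an adjusted p under 0.01 and differences in rhythm under 0.05. SEs of log2 differences were taken from the F statistic. JTK_CYCLE was reimplemented with 20 templates of periods from 8 to 24 h and run on normalised counts (median-of-ratios size factors). Its adjusted p covers the templates of a gene and not the number of genes. Correlations used log2(normalised count + 1) and 100000 resamples. The edgeR tests of level, of a difference in rhythm and of a single time, and JTK_CYCLE in controls, were checked on simulated data. DESeq2 1.42.0, other normalizations and filters, cohorts and left-out libraries were the alternatives.

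Positions and exon lengths are from the GENCODE annotation of GRCm38, promoter sequences from RefSeq on GRCm38.p6, where 6 of the 7 members had a window. Replicates are separate mice, and intervals of counts cover counting error only. Within cohort 1, deviations from the group means were compared between libraries of different groups. Their mean correlation was 0.0059 for the same replicate number (616 pairs) and 0.0065 for different numbers (2255 pairs). Over all groups together the numbers thus showed no pairing, and a pairing within a single ZT was not tested. All 7 members were named in every comparison, and the members, the further pathway genes and the marker lists were chosen with earlier results of these data known.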

Additional observations from a re-analysis of the deposited data

Results flagged for a closer look

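The rhythm of Hdc differed between Q5A and controls in the interaction test of edgeR (adjusted p = 0.0266), with the limits given in the report.

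Each member in each group of virus and ZT was taken as a set, 126 in all, and the sets shared libraries. How many would stand out by chance is not known, since the cut-offs used assume normal values and most counts were low. Single libraries stood apart from the rest of their set in 17 of the 126, by the gap to the nearest library relative to the range of the set. For Hdc these were replicate 4 of cohort 1 in GFP at ZT12 with 34.5 normalised counts (the next was 13.7), replicate 2 of cohort 2 in H3.3 at ZT16 with 36.3 (7.81), replicate 1 of cohort 2 in Q5A at ZT12 with 14.4 (6.15) and replicate 2 of cohort 2 in Q5A at ZT20 with 12.3 (3.08). The first pair are among the libraries whose removal ended the call for Hdc. For Slc18a2 they were replicate 1 of cohort 1 in GFP at ZT20 with 326 (149) and replicate 1 of cohort 3 in H3.3 at ZT8 with 119 (71.9).

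For the breakdown enzymes they were, for Hnmt, replicate 3 of cohort 1 in H3.3 at ZT8 with 4.84 and replicate 1 of cohort 2 in Q5A at ZT12 with 9.59. For Maob, they were replicate 4 of cohort 1 in H3.3 at ZT12 with 9.94, replicate 2 of cohort 2 in H3.3 at ZT16 with 14.4, replicate 2 of cohort 1 in H3.3 at ZT20 with 29.98 and replicate 1 of cohort 3 in H3.3 at ZT4 with 10.3.

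For Hrh1 replicate 2 of cohort 1 in H3.3 at ZT16 held 0 where the other 7 libraries held at least 4.98. For Hrh3 the libraries were replicate 1 of cohort 1 in GFP at ZT20 with 30.2, replicate 5 of cohort 1 in GFP at ZT8 with 25.4, replicate 1 of cohort 1 in H3.3 at ZT12 with 42.4 and replicate 3 of cohort 1 in Q5A at ZT20 with 52.5. The library of GFP at ZT20 was thus apart for both Slc18a2 and Hrh3, that of H3.3 at ZT16 (cohort 2) for both Hdc and Maob, and that of Q5A at ZT12 for both Hdc and Hnmt.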

How the results depend on the processing

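The count of members with a difference in rhythm between Q5A and controls was 1, Hdc, and fell to 0 with the replicate number as a block (Hdc adjusted p = 0.122 in edgeR), with ZT as a factor, with H3.3 alone or GFP alone as the control, with the histaminergic markers as a covariate, and without each of the 5 libraries named in the report. Without the cohort 1 libraries of replicate number 1 to 5 in turn it ran from 0 to 1, with an adjusted p of Hdc from 0.0489 to 0.394. It was 1 under DESeq2, DESeq2 size factors, no filter on low counts, the cohort as a covariate, cohort 1 alone and without 4 libraries set apart by earlier results. Over all genes the count of calls was 17, with 6 under the block, 10 in DESeq2, 98 without the filter, 777 in cohort 1 and 2 to 18 without a replicate number; the cause of these changes was not tested. The block changed no other call on the members, and of 78 libraries of cohort 1, 17 were closest to one of their own number. The count of members rhythmic in controls was 2, with 1 in cohort 1 and 0 by the q over all genes. That in Q5A was 0, with 1 in cohort 1 and 0 to 1 without a replicate number (Hrh1, JTK_CYCLE adjusted p = 0.0304 without replicate 1). Over all genes tested, cohort 1 had 2050 calls in controls and 1234 in Q5A. The count of members correlated with Hdc was 1, with 0 in cohort 1, 0 with group means removed and 0 with both; the settings without a replicate were not run for it. Some log2 differences changed sign: without a replicate number, Hrh3 in Q5A minus controls ran from -0.0028 to 0.097, Slc18a2 from -0.0033 to 0.12 and Slc18a2 in H3.3 minus GFP from -0.0012 to 0.11. With the markers as a covariate, Hdc was -0.41 in Q5A minus controls (0.22 without it) and 0.038 in H3.3 minus GFP, and Slc18a2 -0.041 in H3.3 minus GFP. The counts of members with a difference in level were 0 under all alternatives run. GFP alone as the control, the 10 single libraries and cohort 1 with group means removed were chosen after seeing the data. With medians of 2 to 6 reads for Hdc, Hnmt, Maob, Hrh1 and Hrh2, the depth limits these values to large changes.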
